A study of Mus musculus with 3 samples.

Results

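ILC2-like lymphoid cells are described here from thymus cultures profiled by droplet-based single-cell RNA sequencing. A cell was counted as ILC2-like when it held at least 2 unique molecular identifiers (UMIs, each one captured transcript) of Gata3, at least 1 of Rora and at least 1 of Il13 and Hs3st1 together. It also had to hold at most 1 UMI of Klrd1, at most 1 of Epcam, at most 2 of Chad, Il22, Il1r1 and Il17re together, and no T cell receptor (TCR) contig in the filtered contig list. Of 9349 cells assigned to a culture, 167 met this rule.

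The cells came from 1 lane that held 2 pools on culture day 13. ORFTOCs were reaggregates. Fetal thymic epithelial cells (TECs) had first been expanded as organoids, and were then joined with mouse embryonic fibroblasts and with fetal thymus cells from which EpCAM-positive cells had been removed. FTOCs were intact fetal thymic lobes kept in the same ORFTOC medium. All tissue was from WT mice and received no treatment beyond the culture media. Per the paper, the organoid medium and the ORFTOC medium both held the growth factor FGF7, with the compound thiazovivin added at the start. In each pool 2 cultures were mixed before a hashtag antibody marked the pool. With 1 sample per pool there was no replicate and no test was made. Intervals below are 95% intervals (exact Poisson for sums of UMIs, exact Clopper-Pearson for shares), and they cover counting error only.

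Group 2 innate lymphoid cells (ILC2s) are lymphocytes without a rearranged antigen receptor that depend on the transcription factors GATA3 and RORα. They respond to epithelial and stromal cytokines such as IL-33, IL-25 and TSLP, and they release type 2 cytokines, among them IL-13 and IL-5. In the fetal thymus, innate lymphoid cells arise beside early T cells from shared progenitors, and transcripts of TCR and CD3 genes are known to occur in them.

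The ILC2-like cells were selected on Gata3, Rora, Il13, Hs3st1 and the genes of the upper limits, so the levels of these genes are descriptions only. In ORFTOC, Gata3 held a median of 3.5 UMIs per cell and at most 12. In FTOC the median was 4 and the highest was 6. Rora, a nuclear receptor, held a median of 2 UMIs in ORFTOC and 3 in FTOC, and reached 12 in both. Il13 and Hs3st1, a heparan sulfate sulfotransferase, overlapped in part. Of the 167 cells, 88 held UMIs of both, 24 held Il13 without Hs3st1, and 55 held Hs3st1 without Il13.

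The criteria were applied in 1 fixed order, so the number of cells that each removed depends on its place in that order. A minimum of 2 Gata3 UMIs left 632 cells, and Rora left 297 of them. Il13 and Hs3st1 left 203, the Klrd1 limit left 200 and the Epcam limit left 189. The limit on ILC3 genes left 179, and the contig criterion left 167. Cells that failed 1 criterion only, which needs no order, numbered 68 for Gata3, 38 for Rora and 22 for Il13 and Hs3st1. For the Klrd1, Epcam, ILC3 gene and contig criteria they numbered 2, 10, 10 and 12. The 44 cells with exactly 2 Gata3 UMIs held 155.7 CPM of Il1rl1 (UMIs of the gene summed over the cells and scaled to a common total), 471 CPM of Icos and 841.8 CPM of Lmo4. The 39 cells that failed only by holding 1 Gata3 UMI held 92.3, 397 and 718.5 CPM. The 22 cells that failed only by lacking both Il13 and Hs3st1 held 47.5 CPM of Il1rl1 and 213.9 CPM of Icos, against 90.9 and 292.8 CPM in the 15 cells with exactly 1 such UMI. Cd8a, a thymocyte gene, stood at 89.11 CPM in these 22 cells and had 0 UMIs in the 15.

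The ILC2-like cells also lay together when the genes of the rule were left out. Each cell's 50 nearest neighbours were found among all 9349 cells. A median of 62% of an ILC2-like cell's neighbours were ILC2-like (range 0% to 78%), although this class made up 1.786% of all cells. A further 30.79% of the neighbours had failed 1 criterion only. In 146 cells at least 25 of the neighbours were ILC2-like, and 2 cells had no such neighbour. The other ILC3-type cells made up 0.1796% of the neighbours and the other cells with a TCR β (TRB) contig 1.162%. Cells of these 2 kinds that had failed 1 criterion only were counted in the 30.79% alone. Over both pools, 10 cells had failed only the limit on ILC3 genes and 12 only the contig criterion. The 2 small shares thus leave out the cells nearest to the rule. These values describe the class and are no test of it, since the genes come from the same cells.

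The 150 ORFTOC ILC2-like cells held 982222 UMIs, with a median of 6005.5 per cell and a range of 1649 to 37836. The 17 FTOC cells held 175175 UMIs, with a median of 9655 and a range of 5453 to 18679. Ptprc, which encodes the leukocyte antigen CD45 and was not part of the rule, had a UMI in 132 of the 167 cells (79.04%, 72.08 to 84.95). The comparison class was all other cells with at least 1 Ptprc UMI, 2839 in ORFTOC (median 6887 UMIs) and 2488 in FTOC (median 4387.5 UMIs). It included the near-miss cells described above.

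Some cells held transcripts of another lineage. In 3 ORFTOC ILC2-like cells lay 1751 of the 1760 UMIs of 6 mesenchymal genes such as Col1a1. A single FTOC cell held 75 of the 90 UMIs of the macrophage genes Csf1r, C1qa and C1qb, and that cell and 1 ORFTOC cell held 72 of the 87 UMIs of Cd4, Cd8a and Cd8b1. These were 5 cells in all. Values without them are given beside those genes below that they moved most. Between-pool doublets, seen as 896 barcodes with both hashtags, had been left out beforehand. Within-pool doublets were left in, and a neighbour-based search marked 3 ILC2-like cells.

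Most ILC2-like cells came from ORFTOC. They numbered 150 in ORFTOC and 17 in FTOC, so that ORFTOC supplied 89.82% of the class (84.2 to 93.96). Of other Ptprc cells, ORFTOC supplied 53.29% (51.94 to 54.64). As a share of ILC2-like and other Ptprc cells together, they made up 5.018% in ORFTOC (4.263 to 5.863) and 0.6786% in FTOC (0.3958 to 1.084). Among all cells of a pool the shares were 2.864% and 0.4134%. ILC2-like cells were counted with or without a Ptprc UMI, which 116 of 150 held in ORFTOC and 16 of 17 in FTOC. The rule needs several UMIs per cell. Of other Ptprc cells, 644 of 2839 in ORFTOC and 1074 of 2488 in FTOC held under 3000 UMIs. Among cells with at least 5000 UMIs, thinned at random to 5000, 94 in ORFTOC and 8 in FTOC met the rule. The number of cells of that depth in each pool is not given here, so these are counts and not shares.

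ILC3-type cells, taken as cells with at least 3 UMIs of Chad, Il22, Il1r1 and Il17re together and no filtered contig, numbered 318 in ORFTOC and 91 in FTOC. Their ORFTOC share was 77.75% (73.4 to 81.69), an interval below that of the ILC2-like cells. Cells with at least 2 Klrd1 UMIs, a natural killer (NK) cell receptor gene, and no contig had an ORFTOC share of 40.55% (35.68 to 45.57). Cells with a TRB contig had a share of 46.7% (44.95 to 48.47). The order of these 4 lymphoid classes by ORFTOC share was therefore ILC2-like, ILC3-type, TRB contig and Klrd1 cells, and no adjacent intervals overlapped except those of the last pair. Pdgfra cells, of mesenchymal type, had a share of 85.03% (80.74 to 88.68), which overlapped that of the ILC2-like cells, and fibroblasts had been added to ORFTOC.

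**Figure D1:**
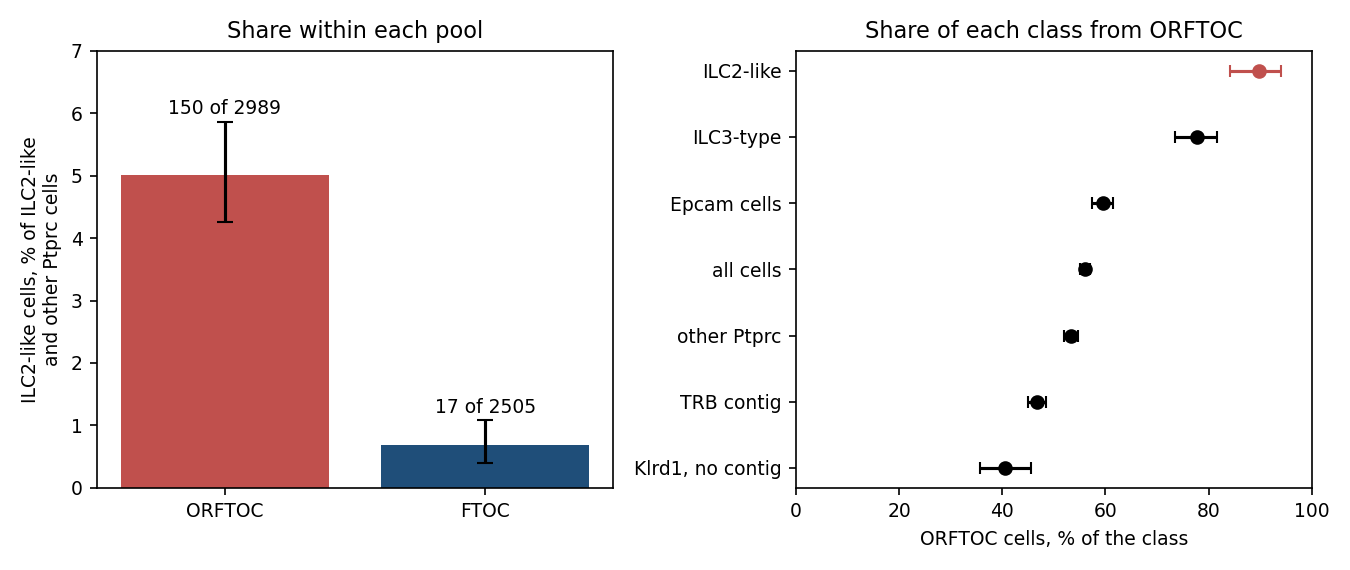
The left panel gives the percentage of ILC2-like cells among ILC2-like and other Ptprc cells in each pool, and the right panel the percentage of each class that came from ORFTOC. Bars are exact 95% intervals for counting error; the ILC2-like share was 5.018% in ORFTOC and 0.6786% in FTOC, and 89.82% of the class came from ORFTOC.

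The hashtag purity bore on the FTOC share. When at least 95% of a cell's hashtag UMIs, in place of 80%, had to lie in one row, 30.59% of other FTOC Ptprc cells were kept against 88.59% in ORFTOC. The ILC2-like cells then numbered 149 and 13, and the FTOC share became 1.68%. It stayed below the ORFTOC share of 5.593%. In FTOC this limit thus removed 4 of 17 ILC2-like cells and most other Ptprc cells.

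Sex-linked transcripts differed between the pools. In ORFTOC, 60 of 150 held UMIs of Y-linked genes without Xist, the RNA that silences an X chromosome in female cells. A further 59 held Xist without Y-linked UMIs, 29 held neither, and 2 held both (1.333%, 0.1619 to 4.733). Of other ORFTOC Ptprc cells, 7.15% held both. In FTOC, 17 of 17 ILC2-like cells held Xist alone. The ORFTOC cells were thus of both kinds in near-equal number, and a difference between pools cannot be told apart from this difference in sex-linked transcripts.

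The ILC2-like cells of ORFTOC were next compared with other Ptprc cells of ORFTOC. A gene was counted as higher or lower at a ratio of at least 2 in CPM with at least 50 CPM in the higher class. Sums under 3 UMIs were set to 3. A gene that reached 50 CPM in ILC2-like cells alone could only be called higher, and in other Ptprc cells alone only lower. Counts over a list of genes below are therefore descriptions. Of 3526 genes with enough UMIs, 349 were higher (9.9%) and 488 were lower (13.8%). The median log2 ratio of all these genes was -0.17. Of the genes higher in ORFTOC, 253 (72.49%) were also at least 2-fold higher in FTOC. Of the lower genes, 201 (41.19%) were at least 2-fold lower there. The share of all compared genes that lay as far apart in FTOC was not counted. These overlaps thus have no background and are no measure of agreement between the pools. Higher genes made up 41.7% of the calls. With TMM scaling, which moved the median to -0.03, the counts were 424 and 395 (51.77%), and with median-of-ratios scaling they were 430 and 394 (52.18%). A log2 value below should therefore be read against a shift of this size.

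Receptors that ILC2s are known for were higher in the class. Il1rl1, the IL-33 receptor subunit ST2, had 118 UMIs (120.1 CPM, 99.4 to 143.9) in ORFTOC and 20 UMIs (114.2 CPM) in FTOC, in 43.71% of the 167 cells. Other Ptprc cells held 3.084 and 0.5656 CPM. The log2 ratio in ORFTOC was 5.28 (4.87 to 5.71). It was the largest among genes outside the rule that reached 100 CPM in ILC2-like cells and had the same direction in FTOC. A UMI of Il1rl1 was seen in 0.5128% of Epcam cells (at least 5 Epcam UMIs), which should lack the gene. Their median depth was 13538.5 UMIs against 6225 in the 167 cells. After each cell was thinned at random to 3000 UMIs, which left out 4 ILC2-like cells and 7 Epcam cells, the shares were 30.06% and 0.1715%.

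Receptors for other alarm and helper signals lay in the same direction. Il17rb, the IL-25 receptor subunit, stood at 113.0 CPM in ORFTOC ILC2-like cells against 5.506 CPM, a log2 ratio of 4.36 (3.99 to 4.72). Nmur1, the receptor for the neuropeptide neuromedin U, stood at 71.3 against 2.092 CPM (log2 5.09). Il9r, the IL-9 receptor, stood at 91.6 against 5.727 CPM (log2 4.0). All 3 were detected in fewer than 50% of the cells of ORFTOC, so that a single cell often lacked a UMI of a receptor that the class held.

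Among costimulatory and growth receptors, detection was broader. Icos, a costimulatory receptor, was at 408.3 CPM in ORFTOC and 433.9 CPM in FTOC, with a UMI in 82.67% and 100% of cells. Its log2 ratio over other Ptprc cells was 2.94 in ORFTOC and 3.35 in FTOC. Tnfrsf18, which encodes GITR, had a log2 ratio of 3.58, and Cysltr1, a leukotriene receptor, 3.7. Il7r, which transmits the survival signal of IL-7, had 470.4 CPM and a log2 ratio of 1.49 in ORFTOC, but 0.96 in FTOC. Against other ORFTOC Ptprc cells without a contig and with at most 1 Epcam UMI it was 0.4, and with equal weight per cell 0.92, so its place among the higher receptors depended on the comparison cells and the weighting. ILC3-type cells of ORFTOC held 997.5 CPM of it.

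Of the 26 receptor genes examined, 17 had enough UMIs to be counted. Of these 13 were higher and 1, Thy1, was lower, where 9.9% and 13.8% of all genes were. Thy1, a surface glycoprotein of T cells and many innate lymphocytes, stood at 107.9 CPM against 610 CPM and had a UMI in 18.0% of ORFTOC ILC2-like cells (log2 -2.5). Without the 5 cells with transcripts of another lineage it stood at 52.59 CPM (log2 -3.54). Some textbook ILC2 receptors were hardly seen. Ptgdr2, which encodes CRTH2, had 1 UMI in all 167 cells, and Klrg1, an inhibitory receptor of mature ILC2s, had 13 UMIs, all in ORFTOC. Il1rap, the partner of ST2, had 2 UMIs.

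The regulators of the lineage were mixed. Of 14 such genes outside the rule, 10 had enough UMIs, 5 were higher and 1 was lower, where 9.9% and 13.8% of all genes were. Id2, the inhibitor of E proteins that marks innate lymphoid cells, stood at 718.8 CPM in ORFTOC against 167.1 CPM (log2 2.11), and at 610.8 CPM in FTOC. Lmo4, a LIM-domain cofactor, was at 829.8 against 99.2 CPM (log2 3.06). Pparg, a nuclear receptor of lipid metabolism, was at 58.0 against 3.451 CPM (log2 4.07). Nfil3 and Maf were the other 2 that were higher. Tcf7, which encodes TCF1, a factor of early T cells and innate progenitors, was lower, at 31.6 against 417.4 CPM (log2 -3.73). Zbtb16, which encodes PLZF and marks innate lymphoid precursors, had 1 UMI in the class.

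In ORFTOC the log2 ratio of ILC2-like over ILC3-type cells was 0.19 for Id2, -1.08 for Il7r and -0.72 for Maf. It was 5.57 for Il1rl1, 4.22 for Il17rb, 4.52 for Pparg, 1.22 for Lmo4 and 1.15 for Icos. Over Klrd1 cells it was 2.09 for Id2 and 1.89 for Il7r.

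**Figure D2:**
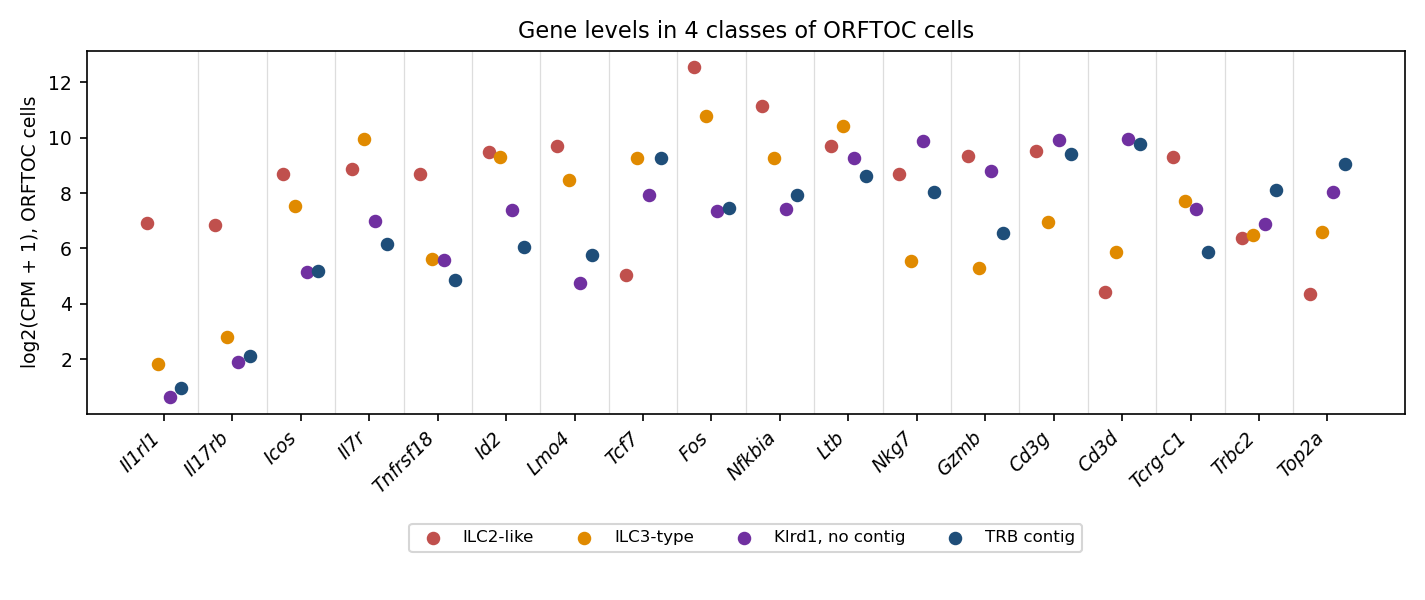
Points give log2(CPM + 1) of summed UMIs of ORFTOC cells for 18 genes in ILC2-like, ILC3-type and Klrd1 cells and in cells with a TRB contig. Il1rl1 and Il17rb are highest in ILC2-like cells, and Cd3d (20.36 CPM) is lower in ILC2-like cells than in each of the other classes.

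Transcripts of cytokine genes were spread unevenly over the class. The 14 cytokine genes outside the rule included 6 with enough UMIs, and all 6 were higher: Il4, Csf2, Areg, Il2, Lif and Calca. Each of these reached the minimum CPM in ILC2-like cells alone, so it could only be called higher. Il13, part of the rule, had 1045 UMIs in ORFTOC (1063.9 CPM, 1000.4 to 1130.4) and 101 in FTOC (576.6 CPM, 469.6 to 700.6). The median cell of either pool held 2 UMIs, while the highest held 66 in ORFTOC and 27 in FTOC. The 15 highest ORFTOC cells held 51.48% of its UMIs.

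Il4 had 182 UMIs in ORFTOC (185.3 CPM, 159.4 to 214.3) with a median of 1 and a maximum of 9 per cell. In FTOC it had 10 UMIs (57.1 CPM) with a median of 0 and a maximum of 3. A UMI of Il4 was seen in 97 of the 167 cells (58.08%) and in 0.5983% of Epcam cells. The log2 ratio over other Ptprc cells in ORFTOC was 4.34 (4.05 to 4.62).

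Il5, which lies near Il4 and Il13, had 1 UMI in ORFTOC ILC2-like cells and 4 in FTOC, the latter all in 1 cell. Il9, Il6, Il10 and Il21 had 0 UMIs in all 167 cells. In ratios, a sum of 0 in the 982222 ORFTOC UMIs was set to 3 UMIs, or 3.054 CPM. A sum of 0 does not show that a gene was absent. In the 175175 FTOC UMIs a single UMI already stands for 5.709 CPM.

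Il4, Il13 and Il5 are neighbours on mouse chromosome 11, and the 250 bases before each start are shown because the first 2 genes were detected in most of the cells and the third in 2. The Il4 and Il13 starts lie 16037 bases apart, and those of Il13 and Il5 lie 86092 bases apart. The sequences are RefSeq entries of build GRCm38.p6, written in the direction of the gene. Il4 covers chr11:53618666-53618915 on the minus strand, Il13 chr11:53634703-53634952 on the minus strand, and Il5 chr11:53720544-53720793 on the plus strand. For Il4, which has 2 entries, the one at the start of the gene model was taken. Capitals mark GATAA or GATAG on either strand (TTATC and CTATC on the reverse strand), core letters that GATA factors are known to bind.
Il4: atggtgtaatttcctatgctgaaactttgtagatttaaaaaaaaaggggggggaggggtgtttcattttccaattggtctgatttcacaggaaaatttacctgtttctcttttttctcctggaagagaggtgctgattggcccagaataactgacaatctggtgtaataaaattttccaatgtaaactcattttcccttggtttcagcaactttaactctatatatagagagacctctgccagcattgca
Il13: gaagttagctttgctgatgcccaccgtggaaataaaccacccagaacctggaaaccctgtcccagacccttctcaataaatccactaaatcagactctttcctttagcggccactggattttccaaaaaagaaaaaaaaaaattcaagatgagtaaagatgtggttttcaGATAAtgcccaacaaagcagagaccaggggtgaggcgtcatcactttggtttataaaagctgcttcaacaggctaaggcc
Il5: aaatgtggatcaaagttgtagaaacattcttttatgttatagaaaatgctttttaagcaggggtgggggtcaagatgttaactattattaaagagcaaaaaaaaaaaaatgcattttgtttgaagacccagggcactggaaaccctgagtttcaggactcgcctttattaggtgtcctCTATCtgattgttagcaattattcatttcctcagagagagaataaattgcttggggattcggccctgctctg

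The Il13 window held 1 match, at bases -80 to -76 from the start, and the Il5 window held 1, at -72 to -68. The Il4 window held none. Of all 32851 promoter windows of this length, 37.45% held at least 1 match, so a match is no distinction. AGGTCA on either strand (TGACCT on the reverse strand), core letters that ROR factors are known to bind, was in 14.02% of all windows and in none of these 3. Il5 and Il13 had 5 and 1146 UMIs over both pools, and the window of each held 1 match. These matches are letters in a window and say nothing about binding.

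Other secreted factors were each found in a portion of the cells. Calca, which encodes calcitonin gene-related peptide (CGRP), had 328 UMIs in 44.67% of ORFTOC cells (333.9 CPM) and 28 UMIs in 47.06% of FTOC cells (159.8 CPM). Il2, the T cell growth factor, had 115 UMIs in ORFTOC (117.1 CPM) and 9 UMIs in FTOC (51.4 CPM), in 43.71% of the 167 cells. Lif, a cytokine of the IL-6 family, had a UMI in 38.67% and 47.06% of cells. The log2 ratios over other Ptprc cells in ORFTOC were 4.91 for Calca, 4.71 for Il2 and 4.0 for Lif.

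Areg and Csf2 were found in fewer cells. Areg, which encodes the epithelial growth factor amphiregulin, had 317 UMIs in 37 ORFTOC cells, and the 15 highest held 81.7% of them. In FTOC it had 98 UMIs in 7 cells, and 3 cells held 85.71%. Csf2, which encodes GM-CSF, had 218 UMIs in 44 ORFTOC cells and 85 UMIs in 6 FTOC cells, of which 3 held 92.94%. The FTOC sum of Csf2 therefore rests on 3 cells. For Areg the 3 highest FTOC cells held 43, 35 and 6 UMIs, and the cell with 35 was the one with macrophage transcripts. Without the 5 cells with transcripts of another lineage the FTOC sum of Areg was 63 UMIs (402.6 CPM).

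A count over 7 genes (Il13, Il4, Csf2, Areg, Il2, Calca and Lif) described how many of them a cell held. Of the 167 cells, 4 held none, 20 held 1, 30 held 2, 54 held 3, 29 held 4, 22 held 5, 7 held 6 and 1 held all 7. Il13, among these 7 genes, is part of the rule. Each cell without an Il13 UMI had entered the class through Hs3st1, so a split by Il13 follows the selection. Csf2 was detected in 37.5% of the cells with an Il13 UMI and 14.55% of those without, and Lif in 47.32% and 23.64%. For Il4 the shares were 64.29% and 45.45%, for Areg 28.57% and 21.82%, and for Il2 45.54% and 40.0%. Calca was detected in 40.18% of the cells with an Il13 UMI and in 54.55% of those without. Median depth was 6189.5 and 6304 UMIs in these 2 sets. These shares are descriptions across cells of 1 lane.

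**Figure D3:**
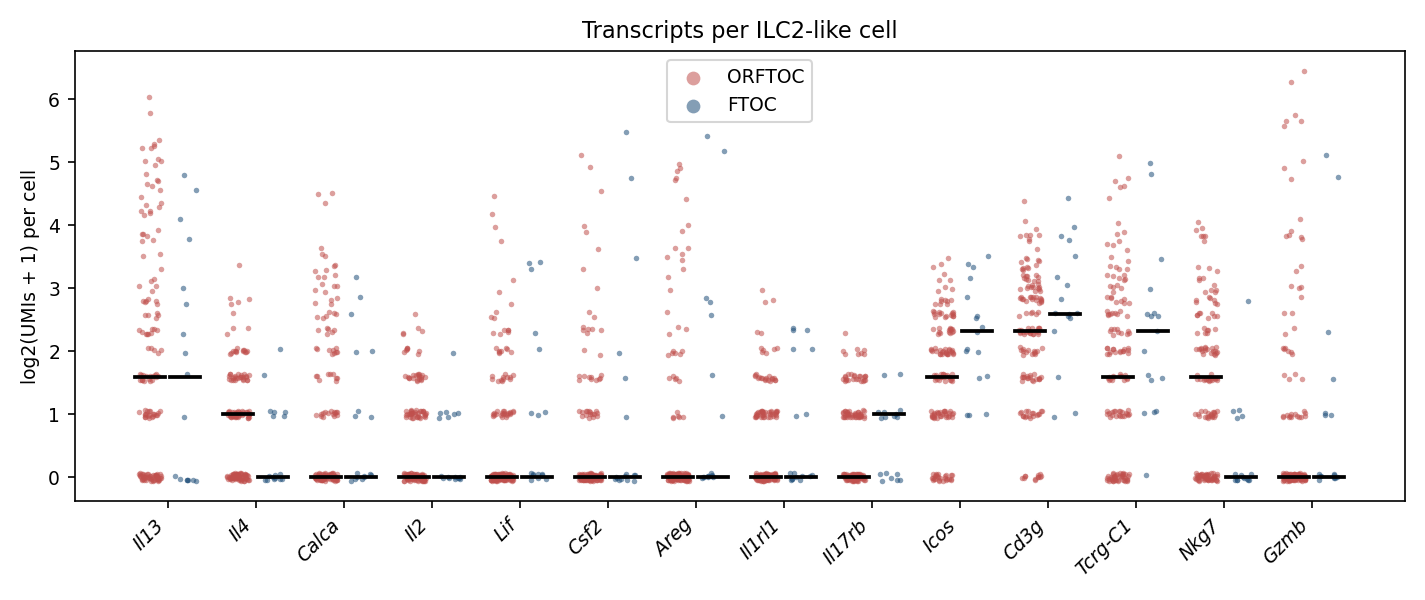
Each point is 1 ILC2-like cell, with log2(UMIs + 1) on the vertical axis, small random shifts for visibility and black lines at the medians. Il13 reaches 66 UMIs in ORFTOC while its median is 2; Nkg7 has a median of 2 in ORFTOC and 0 in FTOC.

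Enzymes of lipid and arginine metabolism were few. Ptgs2, the inducible prostaglandin synthase COX-2, had 184 UMIs in 22 ORFTOC cells (187.3 CPM against 6.314, log2 4.89). Dgat1, a triglyceride synthase, stood at 220.9 against 27.9 CPM (log2 2.99). Arg1, the arginase of ILC2s and some macrophages, stood at 98.8 against 44.01 CPM in ORFTOC (log2 1.17) and at 296.8 against 17.7 CPM in FTOC (log2 4.07). Against ORFTOC Ptprc cells without a contig and with at most 1 Epcam UMI its log2 ratio was 0.51. Fabp5, a fatty acid binding protein, was lower (log2 -3.75). Of 11 genes in this group outside the rule, 4 had enough UMIs, 3 were higher and 1 was lower, where 9.9% and 13.8% of all genes were.

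Chemokine receptors and adhesion molecules differed in direction. Cxcr6, a receptor of tissue lymphocytes, had a UMI in 94.0% of ORFTOC cells, at 720.8 against 107.3 CPM (log2 2.75). Ccr8 stood at 241.3 against 29.0 CPM (log2 3.05) and Cd69, an early activation and retention molecule, at 659.7 against 68.0 CPM (log2 3.28). Ccr7, which guides cells to lymphoid zones, had 2 UMIs. Of 10 compared genes of this group 5 were higher and 2 were lower, where 9.9% and 13.8% of all genes were.

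Immediate-early transcripts were abundant in the class. The 15 genes of this list and of heat shock summed to 28689 CPM in ORFTOC ILC2-like cells and 21978 CPM in FTOC, against 5835 and 4313.5 CPM in other Ptprc cells. Of 13 compared, 10 were higher and 1, Atf3, was lower, against 9.9% and 13.8% of all genes. The log2 ratio of Atf3 was -1.42, and -0.96 with equal weight per cell. Fos, a subunit of the factor AP-1, stood at 5940.6 against 705 CPM (log2 3.07), Junb at 7152.2 against 925.2 CPM (log2 2.95) and Dusp1, a phosphatase of MAP kinases, at 2666.4 against 215.2 CPM (log2 3.63). The heat shock genes did not follow. Hspa1a had 5 UMIs and Hspa1b 9 in ORFTOC, and Hspa8 had a log2 ratio of -0.08.

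The level of Fos also differed among the other cell classes. It was 1745.2 CPM in ILC3-type, 160.7 CPM in Klrd1 and 176.5 CPM in TRB contig cells of ORFTOC, and a UMI was seen in 92.65% of Epcam cells. Levels of Fos thus varied by class within the same lane.

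Genes of NF-κB and cytokine signalling were high too. Nfkbia stood at 2265.3 against 373.3 CPM (log2 2.6), Tnfaip3 at 726.9 against 81.4 CPM (log2 3.16) and Cish, an inhibitor induced by STAT5, at 348.2 against 64.8 CPM (log2 2.43). Of 10 compared activation genes 7 were higher and 1, Socs3, was lower, against 9.9% and 13.8% of all genes. Hes1, a target of Notch, stood at 446.9 against 51.4 CPM (log2 3.12), while other genes of thymocyte stages were mostly lower. Of the 9 compared, 2 were higher and 6 were lower, among them Cd8a, Rag1 and Dntt, against 9.9% and 13.8% of all genes. Lower levels of thymocyte genes can follow from the rule, since 1596 of the 2839 other ORFTOC Ptprc cells held a filtered contig and no ILC2-like cell could.

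Cell cycle genes were low in the ORFTOC cells. All 11 compared were lower than in other Ptprc cells. Most of these genes reached the minimum CPM in other Ptprc cells alone, and those could only be called lower. Top2a, a topoisomerase of dividing cells, stood at 19.3 against 330.5 CPM (log2 -4.09). At least 10 UMIs of the 12 genes were held by 4 of 150 ORFTOC cells (2.667%, 0.7313 to 6.687) and by 27.76% of other ORFTOC Ptprc cells. In FTOC 5 of 17 cells held as many (29.41%, 10.31 to 55.96), near the 22.19% of other FTOC Ptprc cells.

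Genes that marked other cell types were mostly at or near 0. Of the 10 myeloid genes, 6 were compared and all 6 were lower in ORFTOC. Most of these 6 reached the minimum CPM in other Ptprc cells alone, and those could only be called lower. Lyz2, a macrophage lysozyme, stood at 32.6 against 1839.6 CPM (log2 -5.82). Tyrobp, an adaptor of myeloid and NK receptors, had 3 UMIs in ORFTOC against 458.4 CPM in other Ptprc cells. The B cell genes Ms4a1 and Pax5 and the erythroid gene Alas2 had 0 UMIs. Cd79b had 8 UMIs and the haemoglobin gene Hba-a1 had 9, the latter in 4.192% of the cells and all in ORFTOC. The mesenchymal genes were called higher in 5 of 5 compared, but these ratios lay in the 3 cells named above. Without the 5 cells with transcripts of another lineage the log2 ratio of Col1a1 went from 1.63 to -5.74.

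NK and cytotoxic genes were partly present. Nkg7, a cytotoxic granule protein, stood at 409.3 CPM in 64.0% of ORFTOC ILC2-like cells and at 57.1 CPM in 29.41% of FTOC cells. Gzmb, granzyme B, had a UMI in 33.53% of the 167 cells and stood at 642.4 against 140.3 CPM in ORFTOC (log2 2.19). A UMI of Nkg7 was seen in 3.034% of Epcam cells and one of Gzmb in 1.453%. Tbx21, Eomes, Ncr1 and Ifng, which define NK cells and ILC1s, had 0 UMIs in all 167 cells. Xcl1 and Ccl5 were lower.

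Mcpt8, a basophil protease, was an exception among mast cell and basophil genes. It had 80 UMIs in 10 ORFTOC cells, of which 3 held 58, and 0 in FTOC. Of those 10 cells, 10 also held Nkg7, 9 held Gzmb, 8 held Il13 and 7 held Il4. Cpa3, Fcer1a, Ms4a2, Tpsb2, Tpsab1, Mcpt4, Cma1 and Gata2 had 0 UMIs in the whole class, and Hdc had 2. Other ORFTOC Ptprc cells held 3.451 CPM of Mcpt8 and the ambient profile of near-empty barcodes 0.2572 CPM.

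Genes of the TCR and CD3 complexes split in the class. Of 15 compared, 9 were lower and 2 were higher, where 13.8% and 9.9% of all genes were. The rule had removed cells with a filtered TCR contig, which 1596 of the 2839 other ORFTOC Ptprc cells held. A lower level of these genes can thus follow from the selection, and the count is a description only. Cd3g, a CD3 chain, had 722 UMIs in ORFTOC (735.1 CPM) and 125 in FTOC (713.6 CPM), with a UMI in 155 of the 167 cells (92.81%). Cd3d, which lies next to it, had 20 UMIs in each pool (20.4 and 114.2 CPM), of which 13 in FTOC lay in 1 cell, and a UMI in 8.982% of the cells, near the 10.13% of Epcam cells. Thinned to 3000 UMIs, the shares of ILC2-like cells were 79.75% for Cd3g and 4.294% for Cd3d, and those of Epcam cells 4.243% and 5.186%. Cd247, the ζ chain, had 5 UMIs in ORFTOC and 9 in FTOC, and Trac had 3 UMIs in each pool. Without the 5 cells with transcripts of another lineage the FTOC sums were 7 UMIs for Cd3d, 2 for Cd247 and 0 for Trac.

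The 2 higher genes were γ chain constant genes. Tcrg-C1 stood at 624.1 CPM in ORFTOC and 639.4 CPM in FTOC, against 83.3 and 72.8 CPM in other Ptprc cells (log2 2.91 and 3.13), and had a UMI in 74.85% of the 167 cells. Tcrg-C4 stood at 133.4 against 37.5 CPM in ORFTOC (log2 1.83). Trdc, the δ constant gene, was lower, at 21.4 against 56.6 CPM (log2 -1.4), and -0.72 without the Il13 and Hs3st1 criterion. The constant genes of one locus resemble each other in sequence, so the split of UMIs among them is uncertain. In TRB contig cells of ORFTOC, Cd3d stood at 880.4 and Cd3g at 675.6 CPM, and in ILC3-type cells at 57.7 and 123.4 CPM.

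The contig lists of the TCR library added to this. By the rule no ILC2-like cell had a contig in the filtered list. In the full list of assembled contigs, 149 of the 167 cells had one, and 147 (88.02%, 82.11 to 92.53) had one that joined a TRB J gene to a TRB constant gene without a V gene. Median depth was 6225 UMIs in the class and 13538.5 in Epcam cells. This kind of contig was in 68.14% of other Ptprc cells (66.87 to 69.39) and 67.32% of those without a filtered contig (65.21 to 69.38). It was in 85.33% of ILC3-type cells, 84.13% of Klrd1 cells and 69.0% of TRB contig cells. In Epcam cells, which should lack it, the share was 9.573% (8.41 to 10.84). A contig with a V gene was in 8 ILC2-like cells (4.79%, 2.091 to 9.221). The rule had removed cells with a filtered contig, so this share was lowered by the selection. It was 6.112% in ILC3-type and 31.23% in Klrd1 cells, where the same removal applied. In other Ptprc cells without a filtered contig it was 27.5%, and in Epcam cells 11.5%.

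Among J genes, TRBJ2-1 was in 132 cells (79.04%, 72.08 to 84.95) and TRBJ1-1 in 43 (25.75%, 19.3 to 33.08). The TRBJ2-1 share was near that of ILC3-type cells (76.28%, 71.86 to 80.32). In other Ptprc cells without a filtered contig the shares were 46.96% and 7.34%. The TRBJ1-1 share was above those of ILC3-type (5.379%, 3.401 to 8.031), Klrd1 (13.1%, 9.939 to 16.82) and TRB contig cells (3.313%, 2.715 to 4.0). In ORFTOC 42 of 150 ILC2-like cells had it and in FTOC 1 of 17. The contigs had a median length of 354 bases for TRBJ2-1 and 634 bases for TRBJ1-1, and a D gene was annotated in 0 of the 233. A join of D to J and a J gene that was never rearranged therefore cannot be told apart here. Leaving out every cell with any contig of the full list left 14 ORFTOC and 4 FTOC cells.

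The germline sequences of both J genes are shown because TRBJ2-1 was in 133 and TRBJ1-1 in 43 of the 233 contigs without a V gene. They are GENCODE vM39 transcripts on build GRCm39, and both lie on the plus strand within the Trb locus, as J gene segments that make up the end of the variable region. Trbj1-1 covers chr6:41510798-41510845 and has 48 bases, and Trbj2-1 covers chr6:41519688-41519737 and has 50 bases. Capitals mark the conserved J motif that lies within the segment.
Trbj1-1: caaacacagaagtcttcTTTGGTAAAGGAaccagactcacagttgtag
Trbj2-1: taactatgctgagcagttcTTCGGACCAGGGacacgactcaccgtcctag

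**Figure D4:**
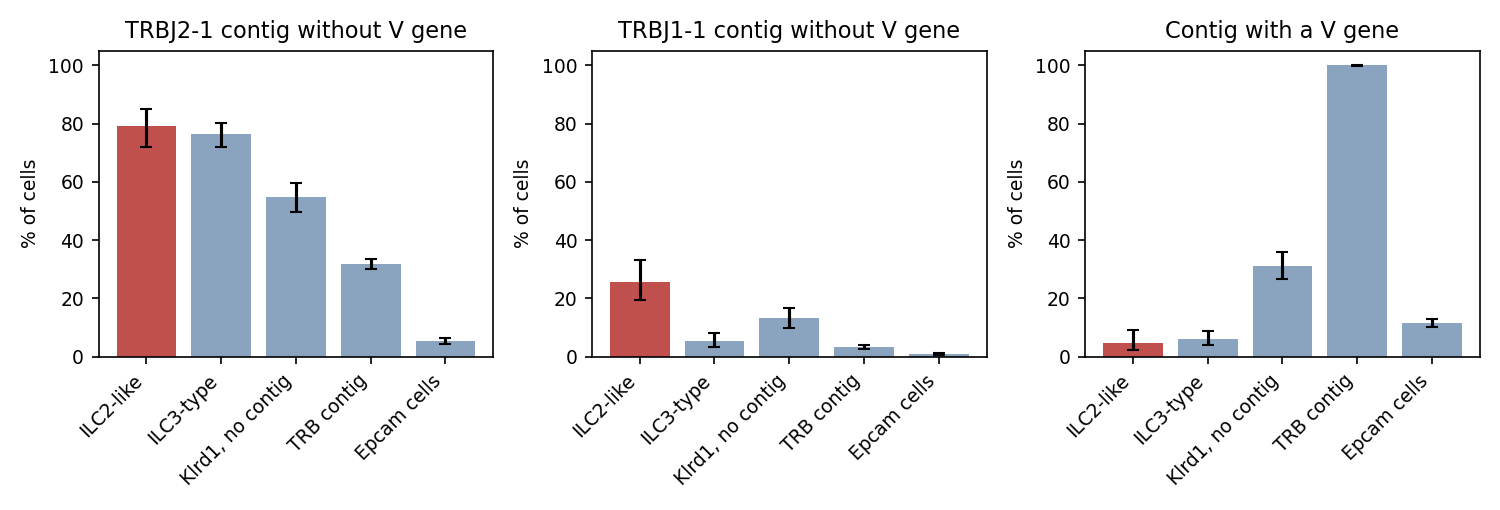
Bars give the percentage of cells of each class, over both pools, with a TRBJ2-1 contig without a V gene, a TRBJ1-1 contig without a V gene or any contig with a V gene, with exact 95% intervals. The ILC2-like cells had the first in 79.04%, the second in 25.75% and the third in 4.79%. The third was set in part by selection: cells with a filtered contig were left out of the ILC2-like, ILC3-type and Klrd1 classes. TRB contig cells, chosen by such a contig, had it in 100%.

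Of 15 ligand genes of ILC2 receptors, 2 had enough UMIs to be compared, Il2 and Jag1, and both were higher in the class. Both reached the minimum CPM in ILC2-like cells alone, so they could only be called higher. Il2 is also counted among the cytokine genes above. Il33, the ligand of ST2, had 0 UMIs in ILC2-like cells and 177.3 CPM in Pdgfra cells of ORFTOC (at least 2 UMIs of Pdgfra, a mesenchymal receptor), with 192.5 CPM in those of FTOC. Epcam cells held 10.3 and 11.4 CPM. Il7, the ligand of the Il7r product, stood at 186.4 CPM in Epcam cells of ORFTOC and 144.7 CPM in FTOC, against 15.9 and 8.022 CPM in Pdgfra cells. Il25 had 0 UMIs in ILC2-like and Pdgfra cells and 33 UMIs in Epcam cells of ORFTOC. Jag1, a Notch ligand, stood at 96.7 CPM in ORFTOC ILC2-like cells against 11.9 CPM in other Ptprc cells (log2 3.03).

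Ranked by ratio alone, genes outside the lists also appeared. This ranking took only genes with the same direction in FTOC, so their direction there is no separate result. Among genes of at least 100 CPM in ILC2-like cells the highest after Il1rl1 were Gm20627 (log2 5.01), Hlf (4.92), Calca, Areg and Ptgs2. Hlf, a PAR bZIP transcription factor, stood at 208.7 CPM in ORFTOC and 177 CPM in FTOC, against 6.901 and 1.76 CPM. Scin, an actin-severing protein, had a log2 ratio of 4.46. Ramp3, which modifies receptors of the calcitonin family, had one of 4.19, Homer2, a scaffold protein, 4.11 and Deptor, an inhibitor of mTOR, 3.99. Calcrl, the receptor with which Ramp3 forms an adrenomedullin and CGRP receptor, had 12 UMIs in ORFTOC, and 4 without the 5 cells with transcripts of another lineage.

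**Figure D5:**
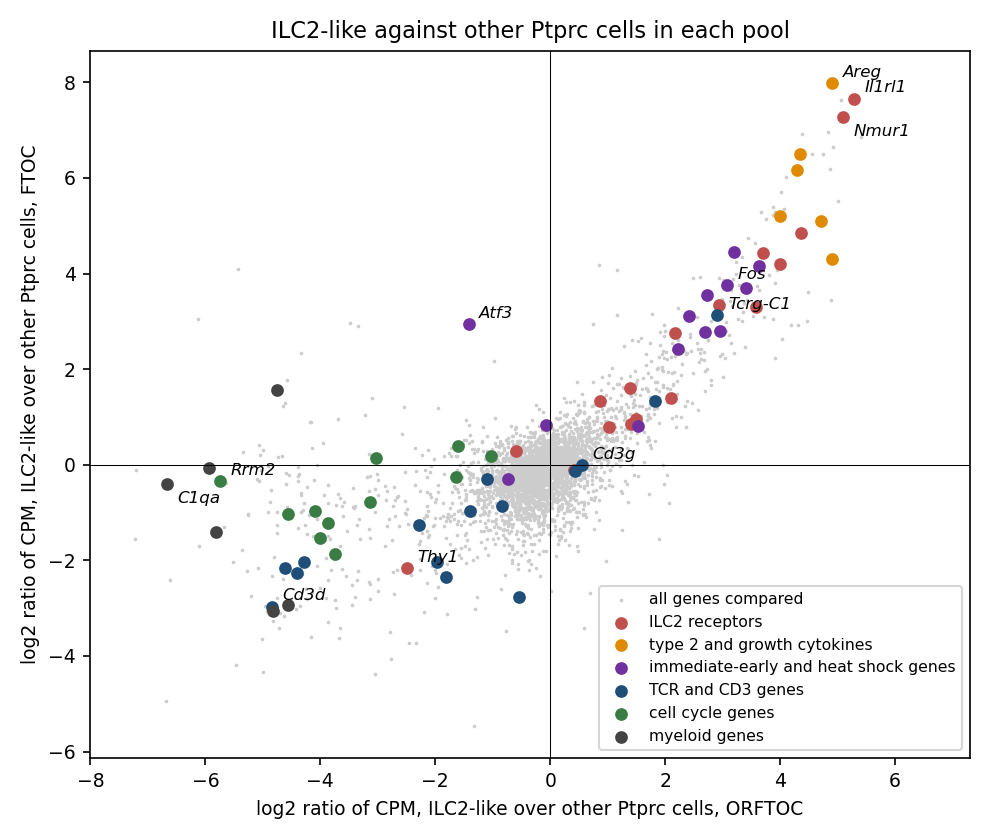
Each point is 1 gene, with the log2 ratio of CPM in ILC2-like over other Ptprc cells in ORFTOC on the horizontal and in FTOC on the vertical axis; grey points are all genes compared. The 6 cytokines and most receptors lie at the upper right, Cd3d and Thy1 at the lower left, and Atf3 has opposite signs (-1.42 and 2.94).

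Within the class, ORFTOC and FTOC cells were compared by the same ratio of 2, with 100 CPM or more required on the higher side. Of 1664 genes, 66 (3.97%) were higher in ORFTOC and 146 (8.77%) were lower. The median log2 ratio was -0.13, and 31.13% of the calls were higher. With TMM scaling the counts were 89 and 106 (45.64%), and with median-of-ratios scaling, which moved the median to -0.01, they were 89 and 109 (44.95%). The FTOC side rests on 17 cells, so that 1 cell could set a value.

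The ends of that ranking were such values. Sparc, Col1a1, Col3a1, Col1a2 and Mgp, products of mesenchymal cells, had the highest ratios (log2 4.23 to 5.58), and 99.13% of the Sparc UMIs lay in the cells with transcripts of another lineage. Ccl12, Mrc1, C1qc and Ccl2, products of macrophages, were among the lowest (log2 -6.14 to -5.62), as was the histone gene Hist1h2ap. Without those 5 cells 146 ORFTOC and 16 FTOC cells remained, with 893659 and 156496 UMIs.

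Some genes of that reduced set are given here, chosen after their values had been seen. Nkg7 stood at 440.9 against 63.9 CPM, a log2 ratio of 2.79 (1.89 to 3.86), with a UMI in 64.38% and 31.25% of cells. Over all 167 cells thinned to 3000 UMIs the shares were 51.37% and 17.65%. Cd160, a receptor of NK and T cells, had 223 UMIs in 81 ORFTOC cells and 1 UMI in FTOC. Cd7, a T and NK cell antigen, had 209 UMIs in 63 cells and 2 in FTOC. Ifitm1, an interferon-induced membrane protein, had 296 UMIs in 31 ORFTOC cells and 0 in FTOC, where 3 UMIs in 156496 would be 19.17 CPM. Bpifa1, a secreted airway protein, had the highest ratio, but over all 150 ORFTOC cells 264 of its 299 UMIs lay in 3 cells, and the ambient profile held 1985.7 CPM. Other genes went the opposite way. Ccr2, a chemokine receptor, had 17 UMIs in ORFTOC and 26 in FTOC (log2 -3.13), and Tnfrsf4, which encodes OX40, had 10 and 12 (log2 -2.78). Gzmb had a log2 ratio of 0.55 (0.18 to 0.93).

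In the same set, histone and cell cycle genes were lower in ORFTOC. Hist1h2ap, Hist1h1b, Rrm2, Spc24 and Pclaf had the lowest log2 ratios (-5.87 to -4.89). Each was seen in 3 to 5 of the 16 FTOC cells, and 5 of the 17 FTOC cells had at least 10 UMIs of cell cycle genes as given above. Outside the cell cycle, Lgals3, a galectin, had 40 UMIs in ORFTOC and 93 in FTOC, of which 61.29% lay in 1 cell.

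Of 14 receptor genes with enough UMIs in either pool 1 was lower in ORFTOC, and of 7 regulators 1 was higher and 1 was lower, where 3.97% and 8.77% of all genes were. They were Ramp1, a partner of the CGRP receptor (log2 -1.47), Runx3, a RUNX transcription factor (1.33), and Bcl11b, a zinc finger factor of T cells and ILC2s (-1.15). For Bcl11b the ratio without the 5 cells was -0.41 (-1.27 to 0.54), so that call rested on them. For Ramp1 it was -0.87 without cells with at least 10 UMIs of cell cycle genes. For Runx3 it was 0.93 without the Il13 and Hs3st1 criterion. The log2 ratio of ORFTOC over FTOC cells was 0.07 for Il1rl1 (-0.62 to 0.84), -0.09 for Icos (-0.44 to 0.29), 0.23 for Id2 (-0.06 to 0.54), 0.04 for Cd3g (-0.23 to 0.33) and -0.03 for Tcrg-C1 (-0.33 to 0.27). Their intervals held 0, which does not show equal levels. Il4 (log2 1.7, 0.79 to 2.78), Il2 (1.19, 0.21 to 2.35) and Calca (1.06, 0.5 to 1.67) were higher in ORFTOC. Csf2 (-1.13, -1.5 to -0.75) and Arg1 (-1.59, -2.09 to -1.07) were lower in ORFTOC, and the FTOC sum of Csf2 lay mostly in 3 cells as given above. Some of these calls were lost under other settings. At a hashtag purity of 95% the log2 ratio was -0.26 for Csf2 and 0.75 for Calca. For Il2 it was 0.84 with equal weight per cell and 0.73 without cells with cell cycle transcripts.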

How the data were processed

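Gene expression, hashtag and TCR libraries were made from 1 lane of a 5′ single-cell kit. Per the labels and the methods, the authors used Cell Ranger 6.1.2 with mm10 and Seurat 4.2.0. The deposited matrix holds raw UMI counts per gene and barcode, unfiltered and not normalised (705161 barcodes). The deposited contig annotations hold 7227 filtered contigs and 24469 in the full list, with counts of UMIs per contig.

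Barcodes with at least 600 genes, 0.4% to 10% mitochondrial UMIs, and at least 80% of at least 10 hashtag UMIs in one row were kept (Python 3.11.15, numpy 2.4.6, scipy 1.17.1, pandas 2.3.3, scikit-learn 1.9.0, matplotlib 3.10.9). UMIs were summed per class and pool and scaled to CPM. Sums under 3 UMIs were set to 3 in ratios. Neighbours were found on 50 principal components of 2000 variable genes. TMM factors came from edgeR 4.0.16 in R 4.3.3, used for scaling only. No test was made, because each pool is 1 sample and cells are not replicates. The ratio step was tested on simulated data.

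Outside the gene lists, genes were named by the largest and smallest log2 ratio with at least 100 CPM on the higher side, and exceptions are marked in the text. In the comparison with other Ptprc cells, genes of the rule were left out, and the ratio had to have the same direction in FTOC. The members of the class and the lists were chosen with earlier results of these data known. Alternatives covered cell filters, hashtag purity, the criteria of the rule, doublets, scaling, ambient RNA and minimum levels. The doublet score was that of a neighbour search, and mixtures within a pool may remain. Some genes are not reported here.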

Additional observations from a re-analysis of the deposited data

Results flagged for a closer look

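The assembled contigs were outside the gene expression comparison and gave a signal above that of Epcam cells in 3 values. A TRB J to constant contig without a V gene was in 88.02% of ILC2-like cells, against 9.573% of Epcam cells. TRBJ2-1 was in 79.04% of them, against 5.342%, and TRBJ1-1 in 25.75%, against 0.7692%. Other Ptprc cells without a filtered contig held these in 67.32%, 46.96% and 7.34%.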

How the results depend on the processing

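ORFTOC held a larger share of ILC2-like cells than FTOC in each alternative tried for the shares. Among the shares and gene counts, these left their interval or moved by over 1.5 times. At a hashtag purity of 95% the FTOC share was 1.68%. With at least 3 or at least 1 Gata3 UMIs the ORFTOC share was 3.656% or 6.229%. Leaving out each cell with any contig in the full list left 18 cells, and ORFTOC then supplied 77.78% of them. The shares were 0.4733% in ORFTOC and 0.1597% in FTOC, 809 genes were higher than in other Ptprc cells, and 140 were higher and 378 lower in ORFTOC than in FTOC. In that set the log2 ratio over other Ptprc cells was -0.18 for Arg1 and 0.19 for Socs3, and that of ORFTOC over FTOC was -0.19 for Il4, 0.04 for Csf2 and -0.19 for Nkg7. The fewer cells of this set are part of its construction, and no other cause was tested.

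With a minimum of 10 CPM, 733 genes were higher and 1664 lower than in other Ptprc cells, and with 3 UMIs in either class 5662 and 2161. Between pools, a minimum of 200 CPM gave 22 and 63 genes, and 3 UMIs in either pool gave 414 and 3080. In FTOC the log2 ratio of Atf3 was 2.94. For Col1a1 over other Ptprc cells it was -5.5 without within-pool doublets and -5.74 without the 5 cells with transcripts of another lineage, an alternative chosen after seeing the data. Between pools these settings gave -2.37 and -2.51 for Col1a1 and -1.37 and -1.51 for Sparc. The depth of the 17 FTOC cells, 175175 UMIs, limits each FTOC value. Of the log2 ratios over other Ptprc cells of 54 genes, 135 of 1026 values under the alternatives moved by over 1.5 times and 22 no longer reached 2-fold or changed sign. Against Ptprc cells without a contig and with at most 1 Epcam UMI 41 of 54 moved so far, among them Il1rl1 (5.28 to 4.23), Cysltr1 (3.7 to 2.53) and Il7r (1.49 to 0.4), and 3 calls were lost. Of the ratios between pools of 17 genes, 32 of 323 values moved so far and 22 lost the call. No paired analysis was possible because each pool is 1 sample and the result comes from no test.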
